A study of Mus musculus with 22 samples.

Results

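The SS18-SSX fusion was added to the loss of Snf5 in mouse tumours whose titles name TATCre, and the RNA of 4 such tumours (combined) was set against that of 5 TATCre tumours with Snf5 loss alone (Snf5-null). These 9 libraries were chosen by title and genotype label from 22 tumour libraries of 3 genotypes. The combined libraries carry the genotype TATcre, SS18-SSX+/- and Snf5-/-, and the tags N49, 78774, 78777 and 78780. The Snf5-null libraries carry the genotype SNF5-/- and the tags N1, N49, N43L, N43R and N51. Both groups thus share Snf5 loss and TATCre, and the stated difference between them is the fusion allele. Values of single libraries follow these 2 orders of tags. N43L and N43R share a tag stem, and N49 occurs as a tag in each group. The strain label rose by 1 from library to library and was not used, and the labels give no age, no tumour site and no statement that the libraries came from separate animals. All p-values therefore rest on the spread of these samples alone, and some of that spread may be technical.

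SS18-SSX is the fusion oncoprotein that defines synovial sarcoma, a soft tissue tumour. Its SS18 part joins SWI/SNF (BAF) chromatin remodelling complexes, which move nucleosomes and oppose Polycomb repression, and SNF5, encoded by Smarcb1, is a core subunit of those complexes. SMARCB1 is the gene lost in malignant rhabdoid tumours and is largely displaced from the complexes that hold the fusion. TATCre is a Cre recombinase protein carrying the cell-entry peptide of the HIV Tat protein, and it acts on whichever cells it reaches rather than on 1 lineage. The comparison asks what the fusion adds where SNF5 is already absent.

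Polyadenylated RNA of whole tumours was counted per gene, with totals of 14893557 to 18062578 counts in the combined libraries and 17138825 to 21807838 in the Snf5-null libraries. Levels are CPM, counts scaled to a common library total with TMM, and they compare libraries for 1 gene, not genes with each other. Each fold change is a log2 value, combined over Snf5-null, with its standard error (SE), and a gene was called where its adjusted p (edgeR quasi-likelihood test, Benjamini-Hochberg over 15952 genes) was below 0.05. Of the 9 libraries, 2 stood apart from their own group. Combined N49 correlated at a mean r of 0.863 with its group (across genes, which are not replicates), against 0.882 to 0.894 for the other combined libraries. Snf5-null N1 correlated at 0.882 with its group, against 0.936 to 0.945 for the other Snf5-null libraries, and at 0.926 with the Snf5-null Myf5Cre tumours of the series. Combined 78774, 78777 and 78780 likewise correlated more with the combined Myf5Cre tumours (0.908 to 0.922) than with their own group. Myf5, a gene of muscle progenitors, reached 0, 0.0554, 0.0519 and 306 CPM in the combined libraries and 251, 5.21, 0.212, 0.205 and 2.79 CPM in the Snf5-null libraries, so that combined 78780 and Snf5-null N1 were each high beside their own group. Counts of N43L and N43R differed by 51.5 times the sampling noise (chi-square per degree of freedom), against 112 to 355 for other Snf5-null pairs, so they were not the same library deposited again. That does not show that they came from separate animals, and they were kept as 2 libraries and also summed as an alternative. Y-linked transcripts were high in 3 of the 4 combined libraries, and Xist was high in 78780. Snf5-null N1 and N51 had high Xist, N43L and N43R high Y-linked transcripts, and N49 both, so that sex was unevenly spread over the groups.

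Smarcb1, the deleted gene, was measured first. Smarcb1 (ENSMUSG00000000902, chromosome 10, 75896769 to 75921617, minus strand) stood at 3.38, 2.99, 2.96 and 2.43 CPM in the combined libraries, against 14.4, 12.5, 15.7, 25.3 and 13 CPM in the Snf5-null libraries (GRCm38 coordinates, GENCODE M21, here and below). Every combined library was below every Snf5-null library (log2 fold change -2.46 ± 0.31 SE, adjusted p = 0.00166). The deleted exons are not named in the labels, so reads of the remaining exons cannot be told from reads of an intact gene. Leucocyte and fibroblast transcripts, given below, were lower in the same combined libraries, and their part in the Smarcb1 difference was not tested. Ss18 (minus strand of chromosome 18, 14624198 to 14682914, ENSMUSG00000037013), whose human counterpart forms the first part of the fusion, was at 82.2, 118, 157 and 111 CPM in the combined libraries, against 82.2, 81.4, 92.6, 88.5 and 87.9 CPM in the Snf5-null libraries, and did not pass the test (0.43 ± 0.19, adjusted p = 0.121). Reads of the fusion transcript may have been counted there, which was not tested.

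Of 15952 genes tested, 1393 were higher in combined tumours (8.73%) and 2026 were lower (12.7%). At least 1 log2 unit separated the groups for 984 of the higher and 1862 of the lower genes, and the libraries of the groups did not overlap at all for 2970 genes (18.6%). The median fold change over all tested genes was 0.134. Without combined N49 and Snf5-null N1, 3759 of 16232 genes were higher (23.2%) and 3404 were lower (21%). Of the calls over 9 libraries, 1300 higher and 1970 lower genes were also called over the remaining 7, and 0 had the opposite sign. Those 7 are part of the same 9 and were chosen after the data were seen, so this is not an independent check. With N43L and N43R summed the shares of tested genes were 2.75% higher and 8.44% lower. Leaving out 1 library gave 2585 higher and 2787 lower genes without combined N49, 608 and 1504 without 78774, 595 and 1484 without 78777, and 663 and 1539 without 78780. It gave 2225 and 2397 without Snf5-null N1, 746 and 1601 without Snf5-null N49, 401 and 1338 without N43L, 385 and 1278 without N43R, and 453 and 1383 without N51. In all 9 of these fits and with N43L and N43R summed, 316 of the higher genes (22.7%) and 1101 of the lower genes (54.3%) were called. Lower calls were thus kept more often than higher calls. Counts for gene lists are given below over 9 libraries and, where they differ much, without those 2 libraries and over the fits that left out 1 library. All are read against the shares of all genes, 8.73% higher and 12.7% lower, or 23.2% and 21% without combined N49 and Snf5-null N1.

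**Figure D1:**
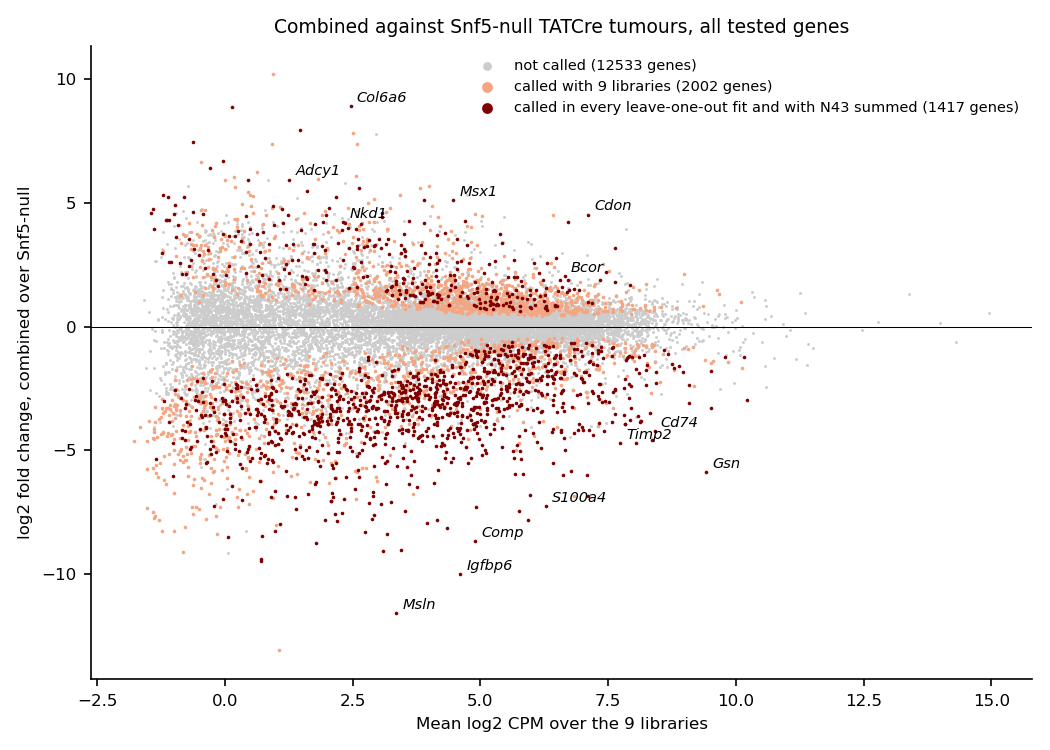
Fold change (log2, combined over Snf5-null) of each tested gene against its mean log2 CPM, with genes that passed the test in colour. Msln and Igfbp6 lie at -11.58 and -10.00 on the lower side, and Tslp and Col6a6 at 10.21 and 8.92 on the higher side.

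**Figure D2:**
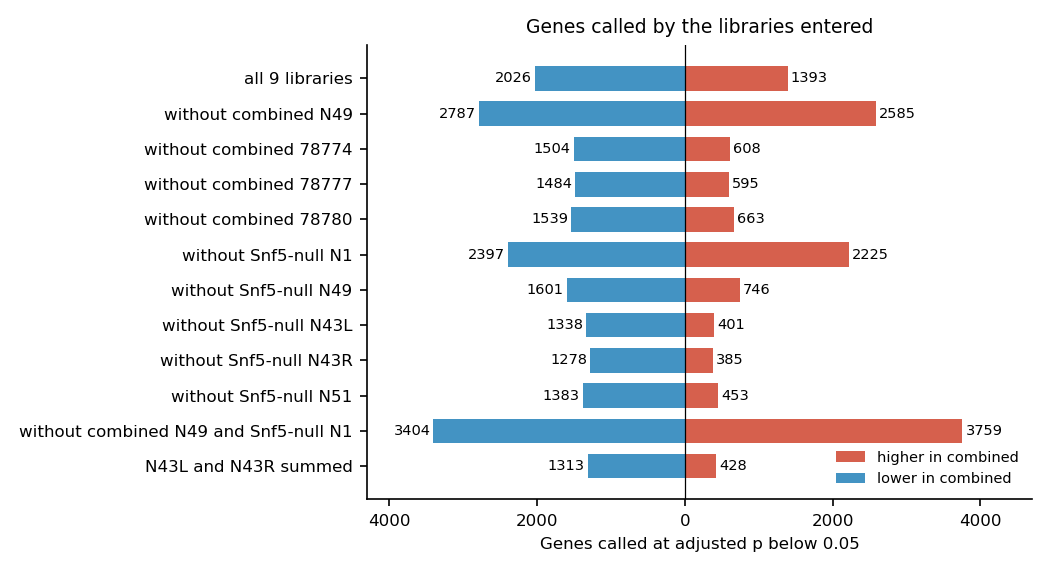
Number of genes called higher (right) and lower (left) in combined tumours by the libraries entered. Fits drawn are all 9 libraries, each library left out, combined N49 and Snf5-null N1 both left out, and N43L and N43R summed. Among the fits that left out 1 library, both counts were largest without combined N49 or Snf5-null N1, and lower calls varied less than higher calls.

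The 15 lower genes of largest change were taken among called protein-coding genes whose groups did not overlap, so the lack of overlap was set by that choice. Msln, which encodes the cell-surface protein mesothelin, was at 0.203, 0, 0.26 and 0.139 CPM in the combined libraries, against 1296, 861, 30.3, 73.5 and 147 CPM in the Snf5-null libraries (-11.58 ± 1.70, adjusted p = 0.00293). Igfbp6, a binding protein for insulin-like growth factors, was at 0.677, 0.443, 0.831 and 0.417 CPM in combined and 53.2, 1060, 786, 786 and 392 CPM in Snf5-null libraries (-10.00 ± 1.01, 0.000973). Comp, the cartilage oligomeric matrix protein, was at 0.677, 0.887, 3.43 and 1.39 CPM in combined and 17.2, 356, 1003, 1392 and 511 CPM in Snf5-null libraries (-8.67 ± 1.34, 0.00356). The Snf5-null levels of these 3 genes spread widely, Snf5-null N1 being the lowest for Igfbp6 and Comp but the highest for Msln. Ptgs2, the prostaglandin-forming enzyme COX-2, was at 0.744, 0.388, 0.831 and 0.139 CPM in combined and 2.54, 355, 262, 189 and 84.5 CPM in Snf5-null libraries (-8.38 ± 1.38, 0.00469), and Prelp, a leucine-rich matrix proteoglycan, was at 0.348 to 2.44 CPM in combined and 8.93 to 487 CPM in Snf5-null libraries (-8.12 ± 1.22, 0.00319). Also lower, with fold changes of -9.06 to -7.87, were Chil1 (-9.06 ± 1.40), Nupr1 (-9.01 ± 1.36), Cst6 (-8.76 ± 1.65), Anxa8 (-8.29 ± 0.98), S100a5 (-7.99 ± 1.11), Itgbl1 (-7.92 ± 1.13) and Brinp3 (-7.87 ± 1.04), with adjusted p values of 0.00149 to 0.0081. Fam180a had 0 counts in the 4 combined libraries and 5546 in the Snf5-null libraries, which makes it at least 1292-fold lower (a floor of 3 counts over the combined group). Zfp385c had 1 count in all combined libraries, 1052-fold lower than in Snf5-null libraries (95% counting interval 189 to 41583), and Wnt2, a secreted Wnt ligand, had 2 counts, 440-fold lower (122 to 3641). In whole tumours, fewer cells of a type and less RNA per cell cannot be told apart, and this holds for every comparison here.

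The 15 higher genes of largest change were chosen in the same way. Msx1, a homeobox gene of limb and craniofacial mesenchyme, was at 173, 14.3, 647 and 106 CPM in the combined libraries, against 12.2, 9.89, 4.35, 3.9 and 3.3 CPM in the Snf5-null libraries (5.13 ± 0.98, adjusted p = 0.00859). Lmo1, a LIM-domain cofactor of transcription, was at 46.8, 4.27, 139 and 5.63 CPM in combined and 1.03, 1.92, 1.01, 1.59 and 0.929 CPM in Snf5-null libraries (5.24 ± 1.02, 0.00923). Ajap1, an adherens junction protein, was at 181, 34.4, 138 and 25 CPM in combined and 1.89, 6.89, 0.477, 0.256 and 0.0929 CPM in Snf5-null libraries (5.63 ± 1.24, 0.0152). The combined libraries differed among themselves by more than 5-fold for these 3 genes, with N49 and 78777 the higher pair. Adcy1, a brain adenylyl cyclase (5.95 ± 1.07, 0.00681), and Elfn1, a synaptic adhesion protein (4.82 ± 1.04, 0.014), showed the same direction. Col6a6, a type VI collagen chain, was at 2146, 15.7, 12.9 and 8.07 CPM in combined and 0.866, 2.7, 0.848, 0.871 and 0.371 CPM in Snf5-null libraries. Its fold change of 8.92 ± 2.01 rested on combined N49 and was 3.40 without it. Tmem132e likewise stood at 5.51 ± 1.24, or 2.84 without combined N49, and Epha4, an ephrin receptor, at 5.11 ± 1.17, or 2.57 without combined 78777.

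Some of the highest genes kept their direction but not their call when 1 library was left out. Gad1, which makes the transmitter GABA, was at 50.9, 2.11, 55 and 2.36 CPM in combined and 0.325, 1.26, 0, 0.0513 and 0.186 CPM in Snf5-null libraries (6.25 ± 1.45, adjusted p = 0.0187), and its adjusted p passed 0.05 without Snf5-null N51 (0.0509). Pax6, a neural and eye transcription factor, was at 31.6, 1.83, 25.3 and 3.06 CPM in combined and 0.433, 0.719, 0, 0 and 0 CPM in Snf5-null libraries (6.06 ± 1.50, 0.0234) and lost its call without Snf5-null N43L (0.0517), Snf5-null N43R (0.0523) or combined 78777 (0.0509). Shisal1 (4.79 ± 1.26, 0.0286) lost it without Snf5-null N43L (0.0592), Snf5-null N43R (0.0568), Snf5-null N51 (0.0559) or combined 78780 (0.0535). Ddx25, an RNA helicase known from male germ cells (4.81 ± 1.44, 0.0427), lost it without Snf5-null N49 (0.0878), Snf5-null N43L (0.0775), Snf5-null N43R (0.0993), Snf5-null N51 (0.073), combined 78774 (0.0576), combined 78777 (0.0951) or combined 78780 (0.0896). The values in brackets after a library are the adjusted p without it, here and below.

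Wnt signalling stabilises beta-catenin, which with TCF and LEF factors switches on target genes, many of them feedback inhibitors of the pathway. Of 14 tested target and feedback genes, 8 were higher in combined tumours and 2 were lower (median 2.41), against 8.73% and 12.7% of all genes. Leaving out 1 library gave 2 to 7 higher and 1 to 2 lower, and 2 higher and 1 lower members held in all of these fits. With N43L and N43R summed, 2 were higher and 1 lower. The sequences below are the 300 bases around the start (250 before, 50 after) of 3 of the higher targets, from RefSeq on GRCm38.p6, 5′ to 3′ on the gene's strand. They are shown because TCF and LEF factors bind CTTTGAT, which stands in capitals on either strand (ATCAAAG on the other). The Sp5 window lies at chr2:70474673-70474972 on the plus strand, that of Tnfrsf19 at chr14:61037938-61038237 on the minus strand and that of Axin2 at chr11:108920099-108920398 on the plus strand.
Sp5: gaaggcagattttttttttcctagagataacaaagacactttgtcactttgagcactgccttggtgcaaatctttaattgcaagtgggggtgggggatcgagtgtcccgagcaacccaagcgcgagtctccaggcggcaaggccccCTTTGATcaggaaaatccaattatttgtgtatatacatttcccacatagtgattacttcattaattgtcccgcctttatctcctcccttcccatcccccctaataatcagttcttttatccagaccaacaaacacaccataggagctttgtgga
Tnfrsf19: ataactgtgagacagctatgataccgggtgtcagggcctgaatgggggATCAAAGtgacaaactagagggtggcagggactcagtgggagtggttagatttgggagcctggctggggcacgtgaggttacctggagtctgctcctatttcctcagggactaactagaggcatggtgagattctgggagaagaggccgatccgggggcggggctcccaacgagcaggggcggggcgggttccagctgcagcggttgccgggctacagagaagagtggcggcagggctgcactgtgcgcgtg
Axin2: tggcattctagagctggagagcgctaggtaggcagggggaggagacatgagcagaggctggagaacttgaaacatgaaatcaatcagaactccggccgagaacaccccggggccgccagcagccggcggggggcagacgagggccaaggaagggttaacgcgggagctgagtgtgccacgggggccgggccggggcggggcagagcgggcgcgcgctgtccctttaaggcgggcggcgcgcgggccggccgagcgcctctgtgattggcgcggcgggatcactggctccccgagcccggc
The motif stood once in the windows shown for Sp5 and Tnfrsf19 and not in that of Axin2. Tnfrsf19 had 2 windows, and the one not shown held no match. Of the 14 listed targets 8 had a window, and 2 of their 10 windows held the motif, against 3.73% of all 32851 windows. A match is only a description of the letters.

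Nkd1, a feedback inhibitor of Wnt signalling, was at 33.6, 28.2, 23.8 and 33.6 CPM in the combined libraries, against 4.92, 1.02, 0.53, 0.564 and 0.836 CPM in the Snf5-null libraries (4.24 ± 0.71, adjusted p = 0.00509). Axin2, another feedback inhibitor and a standard readout of the pathway, was at 62.4, 108, 125 and 28.4 CPM in combined and 16.1, 21.9, 7.1, 11.5 and 11.2 CPM in Snf5-null libraries (2.58 ± 0.46, 0.00672). Combined libraries lay above Snf5-null libraries for both genes, and Snf5-null N1 was the highest of its group for Nkd1. Tnfrsf19, a TNF receptor family member known as a Wnt target, reached 496, 801, 1319 and 886 CPM in combined libraries, against 88, 88.8, 5.25, 5.38 and 2.14 CPM in Snf5-null libraries (4.53 ± 1.16, 0.0259). N1 and N49 were far above the other 3 Snf5-null libraries, and the call was lost without Snf5-null N43L (0.0544), Snf5-null N43R (0.0552), combined 78774 (0.0525) or combined 78777 (0.0587). Sp5, a zinc finger factor induced by Wnt, was at 2.84, 6.48, 52.5 and 13.3 CPM in combined and 0.866, 1.56, 0, 0 and 0 CPM in Snf5-null libraries (5.28 ± 1.56, 0.0407), and lost its call without Snf5-null N43L (0.0817), Snf5-null N43R (0.0826), Snf5-null N51 (0.0785), combined 78774 (0.0615), combined 78777 (0.114) or combined 78780 (0.0679). Lgr6, an R-spondin receptor, was at 435, 10.8, 8.77 and 39.6 CPM in combined and 7.63, 5.51, 0.53, 0.41 and 3.02 CPM in Snf5-null libraries (5.18 ± 1.41, 0.0319). It was 2.49 without combined N49 and lost its call without Snf5-null N49 (0.0597), Snf5-null N43L (0.075), Snf5-null N43R (0.0723), Snf5-null N51 (0.0792) or combined N49 (0.077). Cd44, a hyaluronan receptor that leucocytes and fibroblasts also express, went the other way, at 34.6, 10.8, 20.3 and 12.8 CPM in combined and 142, 474, 416, 511 and 651 CPM in Snf5-null libraries (-4.48 ± 0.56, 0.00166).

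Among 36 tested ligands, receptors, inhibitors and nuclear factors of the pathway, 6 were higher and 6 lower (median 0.46), and without combined N49 and Snf5-null N1 6 and 8 of 35. The shares of all genes were 8.73% and 12.7%, and 23.2% and 21% without those 2 libraries. Lef1, a nuclear partner of beta-catenin, was at 47, 76.8, 43.2 and 43.8 CPM in the combined libraries, against 5.79, 14.6, 2.81, 4.92 and 8.68 CPM in the Snf5-null libraries (2.84 ± 0.45, adjusted p = 0.00403). Wnt10a, a ligand, was at 87.4, 26, 52.2 and 31.9 CPM in combined and 5.79, 19.9, 4.72, 8.46 and 3.62 CPM in Snf5-null libraries (2.54 ± 0.57, 0.016). Fzd10, a Wnt receptor studied as a synovial sarcoma antigen, was at 105, 10.3, 194 and 60 CPM in combined and 6.01, 7.01, 0.053, 0.359 and 0.836 CPM in Snf5-null libraries (5.02 ± 1.27, 0.0254), and lost its call without Snf5-null N43R (0.0574), Snf5-null N51 (0.0639) or combined 78777 (0.0642). The groups did not overlap for Lef1 and Wnt10a. Dkk2, a secreted Wnt antagonist, was at 10.4, 5.04, 5.29 and 2.99 CPM in combined and 74.5, 78.7, 221, 86.2 and 69.8 CPM in Snf5-null libraries (-4.16 ± 0.53, 0.00174), and Dkk3, of the same family and also lower, was at 6.56, 4.27, 4.26 and 1.25 CPM in combined and 99.4, 87.9, 56.8, 112 and 67.2 CPM in Snf5-null libraries (-4.37 ± 0.48, 0.00122). Fibroblast transcripts, given below, were lower in the same libraries, and their part in these differences was not tested.

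Hedgehog ligands bind PTCH1, which frees the GLI factors, and Ptch1, Gli1 and Hhip are themselves targets of the pathway. Of 11 tested members 5 were higher and 1 was lower (median 0.95), against 8.73% and 12.7% of all genes. The counts were 4 to 5 and 1 to 2 over the fits that left out 1 library. Cdon (ENSMUSG00000038119, chromosome 9, 35421128 to 35507652, plus strand), a co-receptor, reached 1425, 489, 973 and 853 CPM in the combined libraries, against 85.1, 60.2, 12.8, 20.4 and 22.2 CPM in the Snf5-null libraries (4.54 ± 0.64, adjusted p = 0.00251). Ptch1 was at 415, 189, 352 and 183 CPM in combined and 28.4, 82, 22.7, 30.8 and 44.8 CPM in Snf5-null libraries (2.77 ± 0.44, 0.00386). All 4 combined libraries stood above all 5 Snf5-null libraries for both genes. Hhip, a decoy receptor, was at 15.4, 30.5, 99.5 and 34.6 CPM in combined and 4.87, 7.97, 1.17, 1.23 and 3.71 CPM in Snf5-null libraries (3.57 ± 0.73, 0.0112). Gli2 was at 21.9, 25.2, 34.1 and 19.4 CPM in combined and 2.54, 6.41, 3.97, 3.49 and 10.5 CPM in Snf5-null libraries (2.22 ± 0.43, 0.009). Gli1 was at 60.3, 58.7, 50.4 and 44.5 CPM in combined and 4.71, 29.7, 18.9, 14.7 and 14.9 CPM in Snf5-null libraries (1.69 ± 0.42, 0.0242), and its call was lost without Snf5-null N43L (0.0578), Snf5-null N43R (0.0658), Snf5-null N51 (0.0653) or combined 78774 (0.0539). Gas1, another co-receptor, was the lower member, at 36.6, 17.9, 30.4 and 30 CPM in combined and 59.2, 489, 484, 898 and 680 CPM in Snf5-null libraries (-4.18 ± 0.70, 0.00493). Snf5-null N1 was the lowest of its group for Gas1 but stayed above every combined library. Of 14 listed members 11 passed the filter on low counts.

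**Figure D3:**
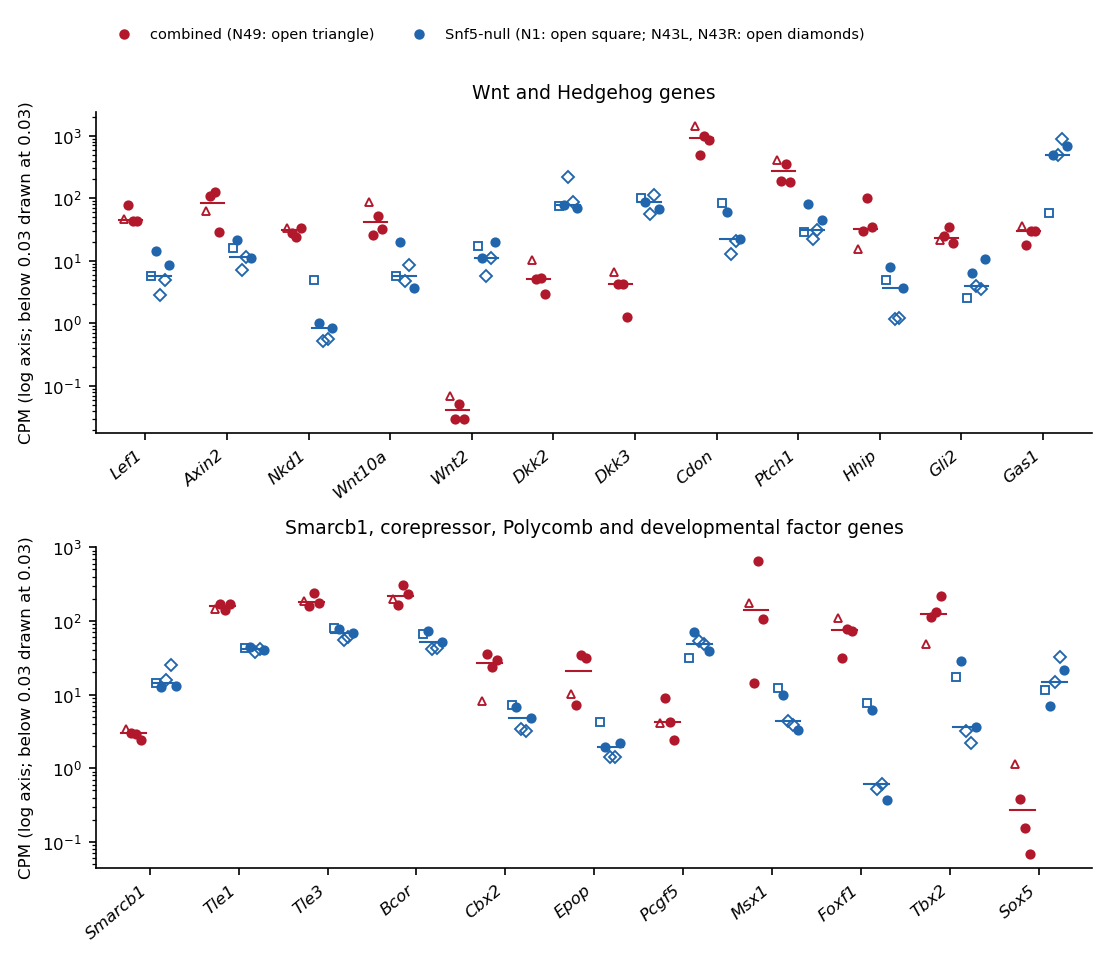
Level (CPM, log axis) of 23 named genes in each library, combined libraries left and Snf5-null libraries right for each gene, with lines at the medians and values under 0.03 CPM drawn at 0.03. Tle1, Bcor, Cdon and Ptch1 sit higher in all 4 combined libraries, and Dkk2, Dkk3, Gas1 and Smarcb1 sit lower in all 4.

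SWI/SNF subunits are read against 8.73% higher and 12.7% lower among all genes, or 23.2% and 21% without combined N49 and Snf5-null N1. Of 11 tested core and ATPase subunits 0 were higher and 1, Smarcb1, was lower (median 0.40). Without the 2 libraries that stand apart, 4 were higher and 3 were lower. Of 19 subunits that mark 1 class of complex 3 were higher and 0 were lower (median 0.28). Bcl11b, a neural and T cell transcription factor that joins BAF complexes, was at 105, 8.31, 121 and 16.8 CPM in the combined libraries, against 3.46, 2.34, 4.93, 6.46 and 5.8 CPM in the Snf5-null libraries (3.77 ± 0.77, adjusted p = 0.0114). Dpf1, the subunit of neuronal BAF, was at 24.8, 4.38, 6.49 and 17.8 CPM in combined and 1.95, 1.86, 1.38, 0.513 and 0.789 CPM in Snf5-null libraries (3.36 ± 0.63, 0.00809). Combined libraries lay above Snf5-null libraries for both. Brd7, of the PBAF class, was at 60 to 83.5 CPM in combined and 43.8 to 56.6 CPM in Snf5-null libraries (0.64 ± 0.16, 0.0221), and lost its call without Snf5-null N43L (0.0586), Snf5-null N43R (0.0636), Snf5-null N51 (0.0621), combined 78774 (0.0725), combined 78777 (0.0801) or combined 78780 (0.0576).

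Polycomb repressive complex 1 (PRC1) marks histone H2A and PRC2 methylates histone H3, and both keep developmental genes silent. Of 23 PRC1 subunits 6 were higher and 1 was lower (median 0.49), against 8.73% and 12.7% of all genes. Bcor (ENSMUSG00000040363, chromosome X, 12036740 to 12160355, minus strand), a subunit of a variant PRC1 and a corepressor, was at 201, 167, 305 and 233 CPM in the combined libraries, against 65.7, 73.5, 41.9, 42.4 and 51.1 CPM in the Snf5-null libraries (2.04 ± 0.25, adjusted p = 0.00164). Cbx2, a PRC1 subunit that reads the PRC2 mark, was at 8.19, 35.6, 23.5 and 29.6 CPM in combined and 7.2, 6.83, 3.39, 3.23 and 4.88 CPM in Snf5-null libraries (2.25 ± 0.45, 0.0102). The lowest combined library was above the highest Snf5-null library for both, by less for Cbx2. Pcgf5, a ring finger subunit of another variant PRC1, was lower, at 4.06, 8.98, 4.31 and 2.43 CPM in combined and 30.9, 70.5, 53.5, 48.5 and 39.4 CPM in Snf5-null libraries (-3.29 ± 0.43, 0.0019). Of 12 PRC2 subunits 4 were higher and 0 were lower (median 0.62). When 1 library was left out, 1 to 7 were higher and 0 to 2 lower. With N43L and N43R summed 2 were higher and 0 lower, and 1 higher member held in all of these fits. Without the 2 libraries that stand apart the counts were 8 and 3, where 23.2% and 21% of all genes were called. Epop, an accessory subunit, was at 10.1, 7.26, 34.1 and 31.4 CPM in combined and 4.27, 1.92, 1.43, 1.44 and 2.18 CPM in Snf5-null libraries (3.20 ± 0.57, 0.00671). Suz12, a core subunit, was at 107 to 172 CPM in combined and 70.8 to 91.9 CPM in Snf5-null libraries (0.85 ± 0.19, 0.0162), and lost its call without combined 78777 (0.0539). Among 22 other regulators of chromatin and DNA methylation 4 were higher and 0 were lower (median 0.25, 0 to 7 higher over the fits that left out 1 library). Hdac1, a histone deacetylase, was at 20.8 to 56.2 CPM in combined and 7.31 to 20 CPM in Snf5-null libraries (1.55 ± 0.36, 0.0195), and lost its call without Snf5-null N43R (0.053) or combined 78777 (0.0562).

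Genes linked to synovial sarcoma were taken as a list of 30, of which 26 were tested, and are read against 8.73% higher and 12.7% lower among all genes. Of the 26 tested, 8 were higher and 2 were lower (median 1.71, 4 to 9 higher and 0 to 2 lower when 1 library was left out). Tle1 (ENSMUSG00000008305, chromosome 4, 72117142 to 72200919, minus strand), a Groucho-type corepressor and a pathologist's marker for synovial sarcoma, was at 147, 169, 141 and 168 CPM in the combined libraries, against 43.5, 44.2, 37.5, 41.5 and 40.7 CPM in the Snf5-null libraries (1.91 ± 0.14, 3.77-fold, adjusted p = 0.000307). Spread within either group was small beside this difference. Tle3, of the same family, was at 189, 158, 241 and 175 CPM in combined and 79.9, 76.5, 55.1, 59.6 and 67.5 CPM in Snf5-null libraries (1.49 ± 0.19, 0.00166). Bcor, Epha4 and Fzd10, described above, are also members.

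Developmental transcription factors differed member by member, and their counts are read against 8.73% higher and 12.7% lower among all genes. Of 29 tested homeobox and paired-box factors outside the Hox clusters 6 were higher and 1 was lower (median 1.56). When 1 library was left out, 1 to 7 were higher and 1 to 3 lower. With N43L and N43R summed 2 were higher and 1 lower, and 1 higher and 1 lower member held in all of these fits. Irx5, an Iroquois factor, was at 24.5, 1.39, 10.7 and 32.5 CPM in the combined libraries, against 3.19, 1.26, 0.53, 1.08 and 1.21 CPM in the Snf5-null libraries (3.57 ± 0.84, adjusted p = 0.0195), with combined 78774 inside the Snf5-null range and the call lost without Snf5-null N43R (0.0541) or Snf5-null N51 (0.0522). En1, a factor of midbrain and limb ectoderm, was lower, at 0.0677, 0.111, 0.934 and 0.139 CPM in combined and 8.39, 6.11, 4.93, 9.48 and 11 CPM in Snf5-null libraries (-4.61 ± 0.81, 0.0062). Of 26 Sox, Fox, T-box, Gata, Zic and AP-2 factors 3 were higher and 2 were lower (median 1.54). Foxf1, a Hedgehog-responsive factor of mesenchyme, was at 111, 31.8, 78.4 and 74.1 CPM in combined and 7.58, 6.11, 0.53, 0.615 and 0.371 CPM in Snf5-null libraries (4.60 ± 0.99, 0.0139). Its relative Foxf2 was at 37.7, 13.5, 14.5 and 17.9 CPM in combined and 1.89, 5.99, 0.583, 0.82 and 0.789 CPM in Snf5-null libraries (3.37 ± 0.75, 0.0161). Every combined library was above every Snf5-null library for both, and among Snf5-null libraries both were higher in N1 and N49 than in the other 3. Tbx2, a T-box repressor, was at 48.1, 114, 132 and 215 CPM in combined and 17.2, 28.5, 3.18, 2.2 and 3.58 CPM in Snf5-null libraries (3.54 ± 0.84, 0.02). Sox5, a cartilage and neural factor, was lower, at 1.15, 0.388, 0.156 and 0.0695 CPM in combined and 11.4, 7.07, 14.9, 32.1 and 21.3 CPM in Snf5-null libraries (-5.29 ± 0.86, 0.00435). Hox genes, which set position along the body axis, gave 0 higher and 4 lower of 32 tested, a lower share near that of all genes. Their median was 0.33, with 0 to 7 higher and 1 to 5 lower when 1 library was left out. Groups did not overlap for 1 of the 32, against 18.6% of all genes. Hoxc11 was at 2.44, 0.443, 0.675 and 1.25 CPM in combined and 10.6, 6.53, 4.56, 8.71 and 4.13 CPM in Snf5-null libraries (-2.52 ± 0.58, 0.018).

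Other signalling lists are read against 8.73% higher and 12.7% lower among all genes. Fgf ligands, receptors and feedback genes gave 2 higher and 1 lower of 19 (median 0.24), among them Fgf9, a mesenchymal growth factor, at 75.2, 4.71, 16.5 and 28 CPM in the combined libraries and 2.92, 2.64, 1.11, 2.2 and 0.743 CPM in the Snf5-null libraries (4.01 ± 0.77, adjusted p = 0.0088). Notch genes gave 2 higher and 2 lower of 17 (median 0.48). Jag2, a Notch ligand, was at 14.8, 24.9, 54.5 and 74.5 CPM in combined and 7.74, 14, 11.5, 9.43 and 8.54 CPM in Snf5-null libraries (2.04 ± 0.45, 0.0148), while Rbpj, the nuclear effector, was at 31.6, 27.5, 27.7 and 21.6 CPM in combined and 75.6, 46.1, 54.1, 57.4 and 68.2 CPM in Snf5-null libraries (-1.15 ± 0.20, 0.00566). Groups did not overlap for these 3 genes. Ephrins and Eph receptors gave 5 higher and 1 lower of 18 (median 1.27), but 0 to 5 higher when 1 library was left out and 1 with N43L and N43R summed. Retinoic acid genes gave 1 higher and 4 lower of 15 (median -0.84). Aldh1a1, an enzyme of retinoic acid synthesis, was at 3.04, 2.44, 0.882 and 2.85 CPM in combined and 0.866, 16.9, 48.2, 99.9 and 25.6 CPM in Snf5-null libraries (-4.06 ± 1.09, 0.0303), with Snf5-null N1 below every combined library and the call lost without Snf5-null N43L (0.0636), Snf5-null N43R (0.0676), Snf5-null N51 (0.0541), combined 78774 (0.0702), combined 78777 (0.0747) or combined 78780 (0.0684).

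Bmp and Tgf-beta genes gave 3 higher and 5 lower of 33 (median -0.27), against 8.73% and 12.7% of all genes. Nog, a secreted Bmp antagonist, was at 12.9, 10.6, 29.4 and 22.5 CPM in the combined libraries, against 1.41, 6.47, 2.49, 2.36 and 2.65 CPM in the Snf5-null libraries (2.61 ± 0.50, adjusted p = 0.00885). Tgfbr2, a Tgf-beta receptor, was at 94.6, 78, 28.6 and 28.7 CPM in combined and 303, 214, 369, 472 and 466 CPM in Snf5-null libraries (-2.67 ± 0.46, 0.00576). Groups did not overlap for these 2 genes. Bmpr1b, a Bmp receptor, was at 0.541, 0.665, 0.623 and 0 CPM in combined and 0.595, 112, 71.6, 53.5 and 42.9 CPM in Snf5-null libraries (-6.89 ± 1.39, 0.0106), and Snf5-null N1 lay within the combined range. Grem1, another Bmp antagonist, was at 2550, 3.77, 11.6 and 1.32 CPM in combined and 4.27, 1.92, 1.91, 0.256 and 5.67 CPM in Snf5-null libraries (7.83 ± 2.28, 0.0393). Combined N49 was far above the other combined libraries, the fold change was 0.96 without it, and the call was lost without Snf5-null N1 (0.0547), Snf5-null N49 (0.0841), Snf5-null N43L (0.097), Snf5-null N43R (0.0912), Snf5-null N51 (0.0827) or combined N49 (0.438). Receptor tyrosine kinases and their ligands gave 3 higher and 9 lower of 32 (median -0.92). Pdgfa, a platelet-derived growth factor, was at 70.9, 87.3, 63.6 and 97.3 CPM in combined and 21.3, 23.4, 14, 9.89 and 20.2 CPM in Snf5-null libraries (2.17 ± 0.27, 0.00174), while its relative Pdgfc was at 9.94, 10.8, 11.5 and 13.6 CPM in combined and 196, 80.8, 106, 80.9 and 57 CPM in Snf5-null libraries (-3.18 ± 0.37, 0.00149). These 2 ligands of the same family thus moved in opposite directions, with no overlap between the groups for either. Ddr1, a collagen receptor, was higher (1.28 ± 0.28, 0.0156), and Axl (-3.04 ± 0.48, 0.00386), Nrg1 (-5.70 ± 0.94, 0.0047) and Csf1 (-4.17 ± 0.56, 0.00207) were lower. Csf1 is the growth factor of macrophages, whose own transcripts were lower in the same libraries.

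Neural genes were a mixed group, read against 8.73% higher and 12.7% lower among all genes. Of 30 tested neuronal and synaptic genes 6 were higher and 3 were lower (median 1.06), with 1 to 8 higher and 0 to 5 lower when 1 library was left out. Syp, the synaptic vesicle protein synaptophysin, was at 77.8, 2.38, 29.3 and 8.69 CPM in the combined libraries, against 2.65, 1.8, 1.54, 2.2 and 1.53 CPM in the Snf5-null libraries (3.92 ± 0.85, adjusted p = 0.0143). Combined 78774 was just inside the Snf5-null range. Only 5 of 21 proneural and neuronal transcription factors passed the filter on low counts, with 0 higher and 1 lower. Axon guidance genes gave 4 higher and 0 lower of 27 (median 0.32, 3 to 5 higher when 1 library was left out). Plxnb1, a semaphorin receptor, was at 21.5, 5.1, 80.7 and 22.2 CPM in combined and 3.03, 3.24, 2.23, 2.15 and 3.71 CPM in Snf5-null libraries (3.49 ± 0.67, 0.00881). Unc5a, a netrin receptor, was at 6.56, 37.4, 27.3 and 58.1 CPM in combined and 5.57, 4.91, 2.12, 1.44 and 2.28 CPM in Snf5-null libraries (3.31 ± 0.64, 0.00896), and Robo2, a Slit receptor, was at 8.25, 7.15, 30.5 and 14 CPM in combined and 2.27, 2.46, 2.97, 1.33 and 2.55 CPM in Snf5-null libraries (2.69 ± 0.48, 0.0068). Combined libraries were above Snf5-null libraries for all 3 receptors. Epithelial genes, of interest because synovial sarcoma can form glands, gave 0 higher and 1 lower of 11 tested among 25 (median 1.20). Their summed level was 55.9, 114, 5259 and 83.9 CPM in the combined libraries and 32 to 94.5 CPM in the Snf5-null libraries, so that combined 78777 stood far above all others. Most of that sum was Wfdc2, a secreted protease inhibitor of glandular epithelia, at 45.1, 60.1, 5045 and 27.2 CPM in combined and 5.68, 23.5, 0, 0 and 0.0464 CPM in Snf5-null libraries (7.79 ± 2.62, 0.0609, which did not pass, and 2.91 without 78777). Grhl2, an epithelial transcription factor, was at 0.135, 0.0554, 17.8 and 0 CPM in combined and 0, 0, 0, 0.0513 and 0.186 CPM in Snf5-null libraries, and Esrp1, an epithelial splicing factor, at 0.947, 0.166, 30.5 and 0 CPM in combined and 0.0541, 0.419, 0, 0.0513 and 0.0464 CPM in Snf5-null libraries. These 3 genes were chosen after their values were seen, and only 78777 held more than 1 CPM of the last 2. The lower member was the tight junction gene Cldn1, at 0.406, 0.887, 0.727 and 0.0695 CPM in combined and 2.44, 4.19, 10.6, 24.2 and 69 CPM in Snf5-null libraries (-5.36 ± 1.20, 0.0162). Factors of epithelial-mesenchymal transition gave 0 higher and 0 lower of 9 (median -0.94).

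Macrophage and monocyte transcripts were lower in combined tumours. Of 20 macrophage and monocyte genes 18 were lower and 0 were higher (median -3.08), against 12.7% lower among all genes, and 18 to 20 were lower in the fits that left out 1 library. Their summed level was 610 to 1245 CPM in the combined libraries and 3109 to 11897 CPM in the Snf5-null libraries, and no member was at 0 in all combined libraries. Itgam, the integrin CD11b, was at 1.69, 1.05, 0.779 and 0.765 CPM in combined and 75.9, 20.9, 46.1, 53.1 and 47.7 CPM in Snf5-null libraries (-5.50 ± 0.47, adjusted p = 0.000545). Cx3cr1, the fractalkine receptor of monocytes, was at 5.82, 16.4, 8.67 and 4.73 CPM in combined and 396, 84.1, 363, 398 and 223 CPM in Snf5-null libraries (-5.04 ± 0.62, 0.00164). Csf1r, the receptor of CSF1, was at 76, 30.7, 24 and 22 CPM in combined and 845, 242, 663, 836 and 920 CPM in Snf5-null libraries (-4.20 ± 0.57, 0.00216). Snf5-null N49 was the lowest of its group for these 3 genes and still lay above every combined library. Cd14 (-5.44 ± 0.61, 0.00126) and Lyz2 (-3.28 ± 0.50, 0.00342) were also lower. Of 5 tested neutrophil genes 1 was lower and 0 were higher (median -2.30), and of 11 dendritic and mast cell genes 4 were lower and 0 were higher (median -2.31). Flt3, a receptor of dendritic progenitors, was at 0.0677 to 0.363 CPM in combined and 1.73 to 12.5 CPM in Snf5-null libraries (-4.83 ± 0.84, 0.00589).

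Lymphocyte genes were lower in part. Counts here are read against 8.73% higher and 12.7% lower among all genes. With N43L and N43R summed those shares were 2.75% and 8.44%. Of 18 tested T and NK cell genes 11 were lower and 0 were higher (median -2.68), and 5 to 10 were lower when 1 library was left out and 5 with N43L and N43R summed. Cd3e, a chain of the T cell receptor complex, was at 0.135, 0.0554, 0.0519 and 0.139 CPM in the combined libraries, against 0.812, 1.74, 1.32, 2.56 and 1.21 CPM in the Snf5-null libraries (-3.95 ± 0.55, adjusted p = 0.00243), and Cd5 gave -4.63 ± 0.57 (0.00164). Of 10 B and plasma cell genes 5 were lower and 0 were higher (median -1.94), with Ighm, the heavy chain of IgM, at 5.75, 2.77, 3.48 and 0.626 CPM in combined and 82.6, 11.4, 85.8, 91.5 and 67.6 CPM in Snf5-null libraries (-4.42 ± 0.77, 0.006). All 8 genes of MHC class II presentation were lower (median -3.46), and 6 to 8 of them when 1 library was left out. Their summed level was 181 to 346 CPM in combined and 865 to 8225 CPM in Snf5-null libraries. Cd74, the invariant chain, was at 112, 72.2, 49.5 and 81.8 CPM in combined and 1416, 311, 1560, 3160 and 846 CPM in Snf5-null libraries (-4.21 ± 0.67, 0.00396). H2-Aa, a class II chain, gave -3.92 ± 0.66 (0.00495), and Ciita, the transactivator of class II genes, was at 4.8, 1.88, 1.97 and 2.36 CPM in combined and 19.4, 7.43, 31.3, 69 and 19.8 CPM in Snf5-null libraries (-3.41 ± 0.67, 0.00923). Groups did not overlap for any gene named in this comparison. MHC class I genes, which most cells express, gave 1 higher and 2 lower of 14 (median -0.33), near the shares of all genes.

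Interferon-stimulated genes gave 0 higher and 10 lower of 30 (median -0.72, 7 to 11 lower when 1 library was left out). The shares of all genes were 8.73% higher and 12.7% lower, or 2.75% and 8.44% with N43L and N43R summed. Ifit3, an antiviral effector, was at 1.76, 4.54, 5.35 and 5.35 CPM in the combined libraries, against 83.7, 27.7, 28.5, 52.3 and 31.7 CPM in the Snf5-null libraries (-3.39 ± 0.49, adjusted p = 0.00274), and Irf8, a factor of myeloid cells, was at 10.7, 9.37, 6.7 and 14.6 CPM in combined and 80.6, 31.6, 65.4, 83.6 and 58.5 CPM in Snf5-null libraries (-2.63 ± 0.35, 0.00198). Chemokines and cytokines gave 1 higher and 16 lower of 28 tested among 34 (median -2.66, 7 to 21 lower when 1 library was left out and 10 with N43L and N43R summed). Ccl2, which attracts monocytes, was at 7.24, 0.776, 1.71 and 2.36 CPM in combined and 38.7, 25.2, 137, 87.4 and 50.5 CPM in Snf5-null libraries (-4.49 ± 0.79, 0.0063). Cxcl16 was at 19.8, 14.3, 14.6 and 20.3 CPM in combined and 218, 79.5, 147, 203 and 110 CPM in Snf5-null libraries (-3.14 ± 0.34, 0.00119). Cxcl13, which attracts B cells, was at 1.62, 4.93, 0.156 and 0.904 CPM in combined and 1837, 76.5, 80.5, 101 and 66.9 CPM in Snf5-null libraries (-7.82 ± 1.73, 0.0153), N1 being far above the other Snf5-null libraries. Groups did not overlap for these 5 genes. Tslp, an epithelial cytokine and the 1 higher member, was at 1919, 3.66, 0.571 and 2.43 CPM in combined and 0.758, 0.3, 0.265, 0.359 and 0.325 CPM in Snf5-null libraries (10.21 ± 2.54, 0.0237). It was 2.42 without combined N49, and the call was lost without Snf5-null N49 (0.0541), Snf5-null N43L (0.0645), Snf5-null N43R (0.0643) or Snf5-null N51 (0.0631). These lists overlap in the cells that express them with the macrophage list, whose summed level was lower in the same libraries, and its part in the interferon and chemokine differences was not tested.

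**Figure D4:**
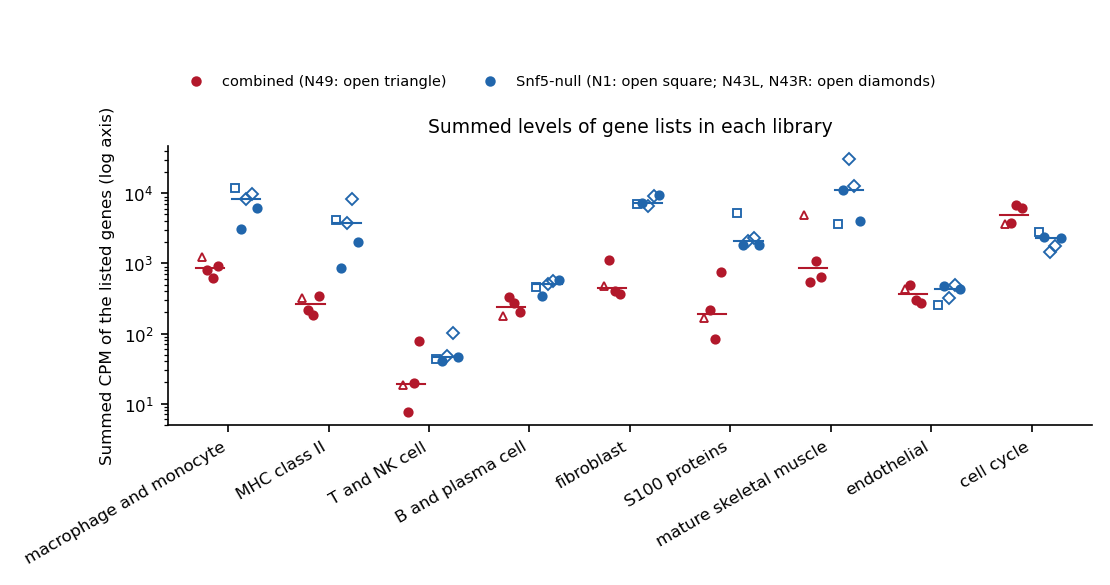
Summed level (CPM, log axis) of 9 gene lists in each library, combined libraries on the left and Snf5-null libraries on the right. Macrophage genes sum to 610 to 1245 CPM in combined and 3109 to 11897 CPM in Snf5-null libraries, and fibroblast genes to 372 to 1115 and 6602 to 9443 CPM.

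Fibroblast transcripts were lower in combined tumours, with no overlap of the groups in their summed level. Of 17 tested members 12 were lower and 0 were higher (median -3.22, 9 to 12 lower when 1 library was left out), and their summed level was 372 to 1115 CPM in combined and 6602 to 9443 CPM in Snf5-null libraries. Gsn (ENSMUSG00000026879, chromosome 2, 35256380 to 35307892, plus strand), which encodes the actin-severing protein gelsolin, was at 90.3, 65.2, 78.7 and 55.6 CPM in the combined libraries, against 2923, 4697, 3733, 5598 and 4250 CPM in the Snf5-null libraries (-5.87 ± 0.39, 58.5-fold lower, adjusted p = 0.00023). S100a4, a calcium-binding protein of fibroblasts and macrophages, was at 8.59, 4.16, 4.98 and 4.8 CPM in combined and 2419, 511, 475, 457 and 412 CPM in Snf5-null libraries (-7.24 ± 0.80, 0.00125). Pi16, of adventitial fibroblasts, was at 0.338, 0.222, 0.363 and 0.209 CPM in combined and 27.2, 9.23, 28.9, 36.5 and 11.4 CPM in Snf5-null libraries (-6.28 ± 0.58, 0.000729). Dpt, which encodes dermatopontin, gave -6.06 ± 0.53 (0.000656). For these 4 genes every combined library was far below every Snf5-null library. Whether such RNA came from fibroblasts or from the tumour cells cannot be told apart in whole tumours. S100 genes as a family gave 0 higher and 7 lower of 8 (median -3.86). The fibroblast and S100 counts are read against 8.73% higher and 12.7% lower among all genes. S100a6 was at 40.8, 118, 37 and 47.8 CPM in combined and 2474, 1040, 1277, 1479 and 1048 CPM in Snf5-null libraries (-4.59 ± 0.52, 0.0013), and S100a16 gave -4.65 ± 0.39 (0.000523).

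Matrix genes were lower in part, read against 8.73% higher and 12.7% lower among all genes. Collagens gave 1 higher and 2 lower of 31 (median -0.26), while other matrix glycoproteins and cross-linking enzymes gave 2 higher and 13 lower of 34 (median -1.60, 12 to 17 lower when 1 library was left out). Bgn, the proteoglycan biglycan, was at 14, 20.4, 32.4 and 5.42 CPM in the combined libraries, against 95.3, 782, 1260, 2032 and 1563 CPM in the Snf5-null libraries (-5.99 ± 0.97, adjusted p = 0.00416). Lox, the collagen cross-linking enzyme lysyl oxidase, was at 116, 47.2, 18.5 and 68.9 CPM in combined and 153, 954, 939, 1435 and 1209 CPM in Snf5-null libraries (-3.91 ± 0.74, 0.00853). Snf5-null N1 was the lowest of its group for both and stayed above the combined libraries. Mfap2, a microfibril protein, was higher, at 15.9, 44.8, 23.6 and 12.2 CPM in combined and 1.41, 5.63, 1.48, 3.02 and 0.975 CPM in Snf5-null libraries (3.27 ± 0.61, 0.00808). Matrix proteases and their inhibitors gave 1 higher and 11 lower of 26 (median -0.82, 10 to 14 lower when 1 library was left out). Timp2, an inhibitor of matrix metalloproteinases, was at 30.7, 62.9, 19.5 and 38.2 CPM in combined and 472, 846, 901, 1190 and 1535 CPM in Snf5-null libraries (-4.71 ± 0.50, 0.00117). Plaur, the urokinase receptor, was at 4.67, 2.44, 2.65 and 3.96 CPM in combined and 54.5, 45.8, 37.4, 30.9 and 45.7 CPM in Snf5-null libraries (-3.64 ± 0.30, 0.000487), and Mmp3, the protease stromelysin, gave -6.74 ± 1.08 (0.00397). The part of fibroblasts and macrophages in these differences was not tested.

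Cartilage, bone and tendon genes gave 2 higher and 5 lower of 15 (median -1.23), against 8.73% and 12.7% of all genes. Matn4, a cartilage matrix protein, was at 56.6, 101, 205 and 99.6 CPM in the combined libraries, against 10.6, 21.1, 24.5, 19.1 and 15.6 CPM in the Snf5-null libraries (2.67 ± 0.38, adjusted p = 0.00265), and Sp7, the bone factor osterix, was at 97.6, 15.9, 54.1 and 22.9 CPM in combined and 3.79, 12.5, 5.72, 2.36 and 2.28 CPM in Snf5-null libraries (3.16 ± 0.69, 0.0147). Prg4, the joint lubricant lubricin, was at 0.203, 0.166, 0.104 and 0.348 CPM in combined and 11.5, 34.2, 9.27, 35.6 and 22.1 CPM in Snf5-null libraries (-6.76 ± 0.65, 0.00087), and Mkx, a tendon factor, was at 0.406, 11.3, 4.83 and 0.417 CPM in combined and 53.3, 116, 181, 215 and 141 CPM in Snf5-null libraries (-5.05 ± 1.06, 0.0126). Groups did not overlap for any of these 4 genes. They do not stand for cartilage, bone or tendon genes as classes, and Comp, a cartilage matrix gene given above, was lower (-8.67).

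Muscle genes did not give a stable result. Of 23 genes of mature skeletal muscle 3 were lower and 0 were higher (median -2.95), against 12.7% and 8.73% of all genes. Without the 2 libraries that stand apart 19 of 22 were lower, where 21% of all genes were. From 0 to 10 were lower when 1 library was left out. Actn3, a protein of fast muscle fibres, was at 104, 37.2, 39 and 78.2 CPM in the combined libraries, against 71.3, 299, 1032, 516 and 102 CPM in the Snf5-null libraries (-2.65 ± 0.81, adjusted p = 0.0453), with overlapping groups and the call lost without Snf5-null N49 (0.0686), Snf5-null N43L (0.0957), Snf5-null N43R (0.0935), combined 78774 (0.102), combined 78777 (0.106) or combined 78780 (0.0908). Early myogenic genes gave 3 higher and 2 lower of 18 (median 0.22), and Mef2c, a muscle and vascular factor, was at 34, 16.6, 26.9 and 18.1 CPM in combined and 77.9, 132, 271, 170 and 90.8 CPM in Snf5-null libraries (-2.63 ± 0.42, 0.00416). Pax7, the factor of muscle stem cells, was at 55.4, 13.7, 55.2 and 24.8 CPM in combined and 8.39, 6.59, 0.318, 0.769 and 0.836 CPM in Snf5-null libraries (3.46 ± 0.97, 0.0346), and lost its call without Snf5-null N43L (0.06), Snf5-null N43R (0.0776), Snf5-null N51 (0.0773), combined 78774 (0.0518), combined 78777 (0.0836) or combined 78780 (0.057). Myf5, given above, was high in 1 library of each group and did not pass the test (0.56 ± 2.50, 0.883).

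Markers of other cell types the tumour pieces could hold are read against 8.73% higher and 12.7% lower among all genes. Endothelial genes gave 1 higher and 2 lower of 17 (median -0.12), and their summed level was 272 to 485 CPM in combined and 253 to 488 CPM in Snf5-null libraries. Sox18, a factor of vessel and lymphatic development, was the lower member of larger change, at 3.11, 3.77, 3.32 and 1.04 CPM in the combined libraries and 3.9, 31.8, 92.6, 94.3 and 29.3 CPM in the Snf5-null libraries (-4.16 ± 0.89, adjusted p = 0.0135). Pericyte and smooth muscle genes gave 0 higher and 1 lower of 8 (median 0.03). Adipocyte genes gave 0 higher and 4 lower of 6 (median -3.22), or 2 lower with N43L and N43R summed, with Lep and Retn at 0 in all combined libraries and Fabp4, a fatty acid carrier, at 1.44 to 4.4 CPM in combined and 10.3 to 21.9 CPM in Snf5-null libraries (-2.39 ± 0.42, 0.00599). Schwann cell genes gave 0 higher and 2 lower of 7 (median -1.05). Mbp, a myelin protein, was at 0.879, 0.831, 1.4 and 0.487 CPM in combined and 64.3, 11.5, 22.6, 27.6 and 31.8 CPM in Snf5-null libraries (-5.11 ± 0.59, 0.0014). Red blood cell genes gave 0 higher and 0 lower of 5 (median 1.48), and keratinocyte genes 0 and 0 of 4 (median -0.19). Of the untested keratinocyte genes, Flg was at 0 in every library of both groups and Ivl in all combined libraries. The sex-linked genes gave 0 and 0 of 5 (median 1.58), each group holding libraries of either kind.

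Cell cycle genes were higher in combined tumours over 9 libraries, but the count was not stable. Of 29 members 15 were higher and 0 were lower (median 1.32), and 2 were higher with N43L and N43R summed. The 9-library count stands against 8.73% higher among all genes, and 24 were higher without the 2 libraries that stand apart, where 23.2% of all genes were. The count was 2 to 22 when 1 library was left out, lowest without Snf5-null N43L or Snf5-null N43R or combined 78777 or combined 78780, and 2 members held in all fits. Ccne2, a cyclin of S phase entry, was at 32.1, 151, 138 and 108 CPM in the combined libraries, against 35.4, 22.7, 11.3, 12.1 and 12.3 CPM in the Snf5-null libraries (2.52 ± 0.51, adjusted p = 0.0106). Its partner kinase Cdk2 was at 35.9, 74.2, 105 and 66.1 CPM in combined and 25.5, 29.2, 25.4, 24.6 and 24.7 CPM in Snf5-null libraries (1.44 ± 0.27, 0.00809). Combined N49 was the lowest of its group for both, close to the highest Snf5-null library and, for Ccne2, below it. Mki67, the proliferation marker Ki-67, was at 257, 311, 756 and 382 CPM in combined and 217, 167, 86.9, 119 and 222 CPM in Snf5-null libraries (1.39 ± 0.39, 0.0355), and lost its call without Snf5-null N49 (0.0691), Snf5-null N43L (0.0816), Snf5-null N43R (0.0908), Snf5-null N51 (0.0555), combined 78774 (0.0574), combined 78777 (0.101) or combined 78780 (0.0646). Myc network genes gave 4 higher and 1 lower of 17 (median 0.31). They gave 0 to 6 higher and 0 to 1 lower when 1 library was left out, and 1 and 0 with N43L and N43R summed. Mycn was at 11.2, 20.1, 37.7 and 69.7 CPM in combined and 7.68, 5.27, 0.636, 1.28 and 1.16 CPM in Snf5-null libraries (3.43 ± 0.84, 0.0224), and lost its call without Snf5-null N43R (0.0567), Snf5-null N51 (0.0538), combined 78777 (0.052) or combined 78780 (0.0579).

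Lists of survival, growth and metabolism are read against the same 8.73% and 12.7%. Targets of p53 and Cdk inhibitors gave 1 higher and 1 lower of 20 (median 0.32). Sesn1, a stress-induced p53 target, was at 43.7, 44.9, 31.6 and 36.2 CPM in the combined libraries, against 113, 57.5, 97.9, 96.8 and 110 CPM in the Snf5-null libraries (-1.28 ± 0.23, adjusted p = 0.0065). Bcl2 family genes gave 0 higher and 3 lower of 10 (median -0.02). Mcl1, a survival factor, was at 160, 177, 181 and 171 CPM in combined and 423, 400, 385, 403 and 398 CPM in Snf5-null libraries (-1.22 ± 0.15, 0.00166), a change of little more than 1 log2 unit with tight groups. Imprinted growth genes gave 0 higher and 2 lower of 15 (median 0.61), and genes of hypoxia and glycolysis 1 and 3 of 21 (median 0.43). Pfkl, the liver-type phosphofructokinase, was at 146 to 272 CPM in combined and 49.9 to 91.1 CPM in Snf5-null libraries (1.42 ± 0.25, 0.0067), and Pfkfb4, which tunes the same step, was at 5.82 to 19.1 CPM in combined and 25.6 to 54.7 CPM in Snf5-null libraries (-1.98 ± 0.43, 0.014). Cholesterol synthesis genes gave 4 higher and 0 lower of 19 (median 0.56), and respiratory chain genes 3 and 0 of 17 (median 0.56). Without the 2 libraries that stand apart, 9 cholesterol and 14 respiratory chain genes were higher, where 23.2% of all genes were. With N43L and N43R summed 1 and 0 were higher, where 2.75% of all genes were. Genes of ER stress gave 0 higher and 2 lower of 13 (median -0.34), and immediate early genes 0 and 3 of 14 (median -1.22). Without the 2 libraries that stand apart 11 of 13 immediate early genes were lower, where 21% of all genes were. Jun, a subunit of AP-1, was at 52.5, 13.3, 11.9 and 13.4 CPM in combined and 112, 103, 154, 147 and 226 CPM in Snf5-null libraries (-2.70 ± 0.52, 0.00912), with combined N49 well above the other combined libraries.

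**Figure D5:**
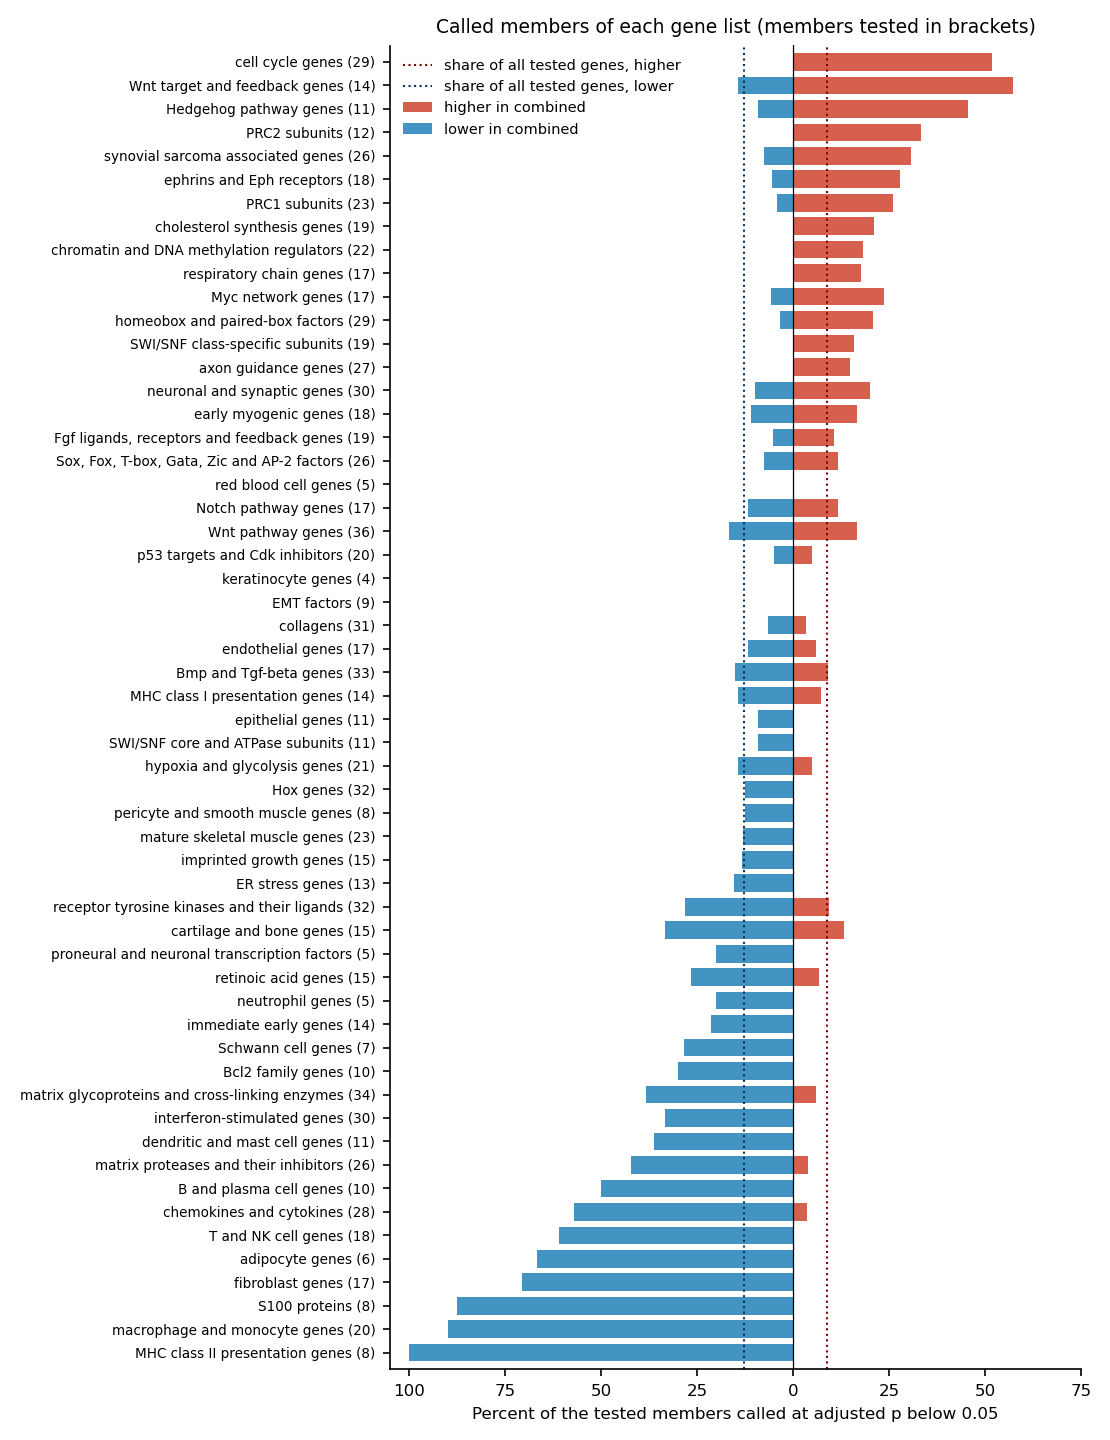
Percent of the tested members of each gene list called higher (right) and lower (left) in combined tumours over 9 libraries, with dotted lines at the 8.73% and 12.7% of all tested genes. Macrophage, MHC class II, S100 and fibroblast genes reach furthest on the lower side, and Wnt targets and cell cycle genes on the higher side.

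The series holds the same 2 genotypes with Myf5Cre, and the difference between the Cre labels was tested as an interaction over 16 libraries (4 combined and 5 Snf5-null with TATCre, 4 combined and 3 Snf5-null with Myf5Cre). Of 17749 genes, the fold change, combined over Snf5-null, was more positive with TATCre for 230 (1.3%) and more negative for 204 (1.15%). The counts were 744 and 579 without Snf5-null TATCre N1, and 22 and 17 without Snf5-null Myf5Cre N31. Six2, a homeobox gene, averaged 0.1 CPM in combined TATCre, 0.777 in Snf5-null TATCre, 19 in combined Myf5Cre and 0.249 in Snf5-null Myf5Cre tumours (interaction -9.16 ± 1.28 SE, adjusted p = 0.00525). F2rl1, a protease-activated receptor, averaged 0.881 CPM in combined TATCre, 162 in Snf5-null TATCre, 65.7 in combined Myf5Cre and 13.9 in Snf5-null Myf5Cre tumours (-9.74 ± 1.28, 0.00376). Dkk2, lower in combined than Snf5-null tumours with TATCre (6.17 and 112 CPM), averaged 26.3 CPM in combined Myf5Cre and 2.06 CPM in Snf5-null Myf5Cre tumours (-7.86 ± 0.83, 0.000691). These 3 calls held when any 1 library was left out, and for all 3 genes the averages differed in direction between the Cre labels. With TATCre, however, Six2 was near the floor and failed the low-count filter of the 9-library fit. Without that filter it was not called there (-2.93, adjusted p = 0.0539, edgeR quasi-likelihood test). Of 30 interferon-stimulated genes 9 had a more positive change with TATCre and 0 a more negative one. With TATCre alone 0 of the 30 were called higher and 10 lower in combined tumours (median -0.72). A more positive change is thus not by itself a higher level in combined tumours. Over all genes, more positive calls numbered only 22 without Snf5-null Myf5Cre N31 and 45 without Snf5-null Myf5Cre N33. How many of the 9 held in those fits is not reported here. Tle1 (-0.74 ± 0.21, 0.0679) and Bcor (-0.98 ± 0.49, 0.283) did not pass this test.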

How the data were processed

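RNA was measured in whole mouse tumours. Per the labels' protocols, fresh-frozen tissue was homogenised, RNA was taken up with an RNeasy Mini kit, and stranded polyadenylated-RNA libraries followed (TruSeq). Named in the submitters' processing notes, without roles, are STAR 2.7.5a, RSEM, featureCounts, cutadapt, DESeq2 and the mm10 build. What the authors deposited are whole-number gene counts of 48440 Ensembl IDs in 22 libraries. No source used here gives the treatment of reads shared by several genes, so close gene copies are uncertain. Symbols and positions came from GENCODE M21 (48058 IDs matched).

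Groups were taken from titles and genotype labels. With edgeR 4.0.16 in R 4.3.3, genes were kept by filterByExpr (minimum count 10, minimum total 15) on the 9 libraries, which left 15952 genes holding 99.76% of the counts, and after TMM scaling the 2 groups were compared by the quasi-likelihood test. The interaction was fitted on 16 libraries. Calls needed an adjusted p (Benjamini-Hochberg, all tested genes) below 0.05. The SE is the fold change divided by the square root of the F statistic. CPM values use TMM-adjusted totals. Counting intervals and floors cover counting error only, and depth in the compared libraries was 14893557 to 21807838 counts. The test was also run on simulated counts, and the outcome is not reported here.

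Genes named are the 15 of largest change in each direction (protein-coding, mean log2 CPM of at least 3 in the higher group, groups not overlapping), members of 57 gene lists, the genes of the alleles and the 5 largest interactions in each direction. Of 1207 listed genes 1019 were tested. Single values of some listed genes are not reported here. The members and lists were chosen with earlier results of these data known. Alternatives were RLE scaling, no filter, DESeq2 1.42.0, a spread estimated from all 22 libraries, N43L and N43R summed, and each library left out. Leaving out combined N49 together with Snf5-null N1, and summing N43L and N43R without Snf5-null N1, were added after seeing the data.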

Additional observations from a re-analysis of the deposited data

Results flagged for a closer look

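Within a group, the library farthest out was set against the others by the gap to its nearest neighbour as a share of the group's range in log2 CPM (Dixon's ratio, listed where it passed the 95% critical value for 4 or 5 libraries). Chance alone passes this limit in about 5% of groups, and many genes and lists were examined, so some of those below may have arisen by chance. Combined N49 stood apart for Ifit3 (0.850), Jun (0.921) and Col6a6 (0.881), and in the mean log2 CPM of chemokines and cytokines (0.840). Combined 78774 stood apart for Lef1 (0.854), and in the mean log2 CPM of MHC class I presentation genes (0.855). Combined 78777 stood apart for Wfdc2 (0.849), and in the mean log2 CPM of Hedgehog pathway genes (0.841). Combined 78780 stood apart for Bmpr1b (0.911), Sox18 (0.847) and Zfp385c (1.0), and in the mean log2 CPM of early myogenic genes (0.918) and sex-linked genes (0.936). Snf5-null N1 stood apart for Nkd1 (0.725), Gas1 (0.772), Bmpr1b (0.811), Nrg1 (0.837), Cxcl13 (0.876), Tslp (0.734), S100a4 (0.879), Lox (0.811), S100a16 (0.813), Epha4 (0.790), Zfp385c (0.890), Nupr1 (0.833), Anxa8 (0.783), Prelp (0.958) and Itgbl1 (0.924), and in the mean log2 CPM of SWI/SNF class-specific subunits (0.729), matrix glycoproteins and cross-linking enzymes (0.788), matrix proteases and their inhibitors (0.778) and Myc network genes (0.725). Snf5-null N49 stood apart for Csf1 (0.861), Csf1r (0.755), Ighm (0.854), Cdk2 (0.783) and Sesn1 (0.767), and in the mean log2 CPM of homeobox and paired-box factors (0.802) and B and plasma cell genes (0.767). Snf5-null N43L stood apart for Dkk2 (0.817).

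The fold change of combined over Snf5-null tumours differed between TATCre and Myf5Cre (interaction test, edgeR, adjusted p below 0.05 over 16 libraries) for 24 of 142 named genes tested. Of these 24, 10 were named because their interactions were the largest, which leaves 14 of the other 132. Many of those 132 were named for a large change with TATCre, which is itself part of the interaction. Their count therefore cannot be set against the 1.3% more positive and 1.15% more negative among all genes. It was more positive with TATCre for Col6a6 (9.67), Slc26a7 (9.64), Tox2 (8.67), Ptgir (8.11) and Cxcl10 (8.10), in log2 units. It was more negative for Dkk2 (-7.86), Dkk3 (-4.09), Gas1 (-4.49), Bmpr1b (-9.11), Pi16 (-4.03), Matn4 (-5.85), Mkx (-6.14), S100a16 (-4.25), Msln (-8.80), Igfbp6 (-7.96), Chil1 (-6.63), Ptgs2 (-7.40), Anxa8 (-5.28), Prelp (-7.38), Egfl6 (-15.09), Eno1b (-11.36), Bhlhe22 (-10.05), F2rl1 (-9.74) and Six2 (-9.16). Eno1b is a near-identical copy of Eno1, so its counts are uncertain. Among these, the call of Col6a6 was lost in 12 and that of Cxcl10 in 12 of the fits that left out 1 of the 16 libraries, and their estimates were 4.12 without combined TATCre N49 and 3.49 without combined TATCre 78780. The estimate of Eno1b was -5.21 without Snf5-null TATCre N1, and its call was lost in 14 of those fits. The call of Msln was lost in 14, that of Anxa8 in 13, that of Prelp in 12, that of Pi16 in 9, that of Slc26a7 in 7 and that of Chil1 in 6 of them. Calls of Dkk3, Bmpr1b, Mkx, Bhlhe22, Ptgs2, Tox2, Gas1, Egfl6 and Ptgir were lost in 1 to 4. Those of Dkk2, F2rl1, Six2, Matn4, S100a16 and Igfbp6 held in all of them.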

How the results depend on the processing

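Higher genes made up 8.73% of the genes tested over 9 libraries. They made up 2.52% with no filter on low counts, 16.5% by DESeq2, 18.1% with the spread of all 22 libraries, 2.75% with N43L and N43R summed, 3.48% when Snf5-null N1 was also left out, and 23.2% without combined N49 and Snf5-null N1. Lower genes made up 12.7%, or 8.44% with N43L and N43R summed and 21% without those 2 libraries, 12.7% under RLE, 18.1% by DESeq2 and 13.9% with the 22-library spread. With no filter they were 5.82% of a larger set of tested genes, or 1839 genes against 2026. When 1 library was left out, higher genes ranged from 2.47% to 15.7% and lower genes from 8.21% to 16.9% of the genes tested. The share of calls that were higher was 40.7%, or 30.2% with no filter, 56.6% with the 22-library spread, 24.6% with N43L and N43R summed and 52.5% without the 2 libraries. The more positive interactions, 230, numbered 153 with no filter, 915 by DESeq2, 123 with N43L and N43R summed and 981 without the 2 libraries, and ranged from 22 to 744 when 1 library was left out. The more negative ones, 204, numbered 872, 121 and 775 by DESeq2, summed and without the 2 libraries, and ranged from 17 to 579. The cause was not tested. Fewer samples enter the fits that leave libraries out or sum them.

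Of 139 named genes tested, all kept direction and side of the threshold under RLE, 137 with no filter, 131 by DESeq2 and 135 with the 22-library spread. By DESeq2 the other 8 kept their direction but were given no adjusted p. They were Cxcl13, Tslp, S100a4, Grem1, Col6a6, Tmem132e, Lgr6 and Cst6. With N43L and N43R summed 15 lost their call, or 28 when Snf5-null N1 was also left out, and 1 to 19 did when 1 library was left out. Of 114 counts of list members, 42 moved by more than 1.5-fold with N43L and N43R summed. The fold change of Tox2 was -0.11 with N43L and N43R summed, -0.08 when Snf5-null N1 was also left out, and ranged from -0.71 (without combined N49) to 0.45 when 1 library was left out. That of Cxcl10 ranged from -3.75 (without combined 78780) to 1.34. No paired analysis was possible because the compared groups share only 1 tag (N49), which no label says marks 1 animal. The low group of Fam180a, Zfp385c and Wnt2 held 0 to 2 counts, so depth limits their folds.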

Other observations

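Of the variance of log2 CPM over the 9 libraries, 49.8% lay on the first principal component and 15.1% on the second. On the first, the combined libraries stood at 61.81 (N49), 102.47 (78774), 113.14 (78777) and 140.93 (78780), and the Snf5-null libraries at -11.65 (N1), -66.13 (N49), -116.27 (N43L), -118.66 (N43R) and -105.64 (N51). On the second, combined N49 and combined 78780 stood at 98.68 and -61.54, and Snf5-null N1 at -111.57, with every other library of the 9 between 1.39 and 27.51. Combined N49 and Snf5-null N1 were thus the members of their groups nearest to the other group on the first component. Mitochondrial transcripts took 4.11% of the counts of combined N49 and 1.28% to 2.09% of those of the other combined libraries, and 2.66% to 4.56% of those of the Snf5-null libraries.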
